A study of Sus scrofa domesticus with 16 samples.

Results

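Genes whose products hold cells together or steer them were examined in the lung methylation data of 16 pigs, of which 8 were fed an increased and 8 a standard dose of cholecalciferol (vitamin D3). The members were taken by symbol: 27 prefixes cover cadherins, catenins, sidekicks, DSCAM, contactins, neurexins, teneurins, the SLIT, netrin, semaphorin and ephrin systems, integrins, laminins, receptor-type tyrosine phosphatases and adhesion G protein-coupled receptors. They matched 37 of the 2349 differentially methylated sites (DMSs) in the deposited table and 21 of its 898 gene symbols. The prefixes reach beyond receptors. NTN1, SLIT1, SLIT3 and LAMA1 are secreted, CTNND1 is cytoplasmic, and PTPRN2 is best known as a protein of secretory vesicles.

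The animals given the increased dose had 3000 IU per kg of feed as growers and 2500 IU as finishers, and those given the standard dose had 2000 and 1500 IU. Each group had 4 males and 4 females, and the feed was otherwise the same. Whole pieces of tissue, from the middle part of the upper lobe of the left lung, were used. Fewer cells of a type and a change within that type therefore cannot be told apart. The tissue label could not be checked against marker genes, since no expression values were used. Methylation was read by reduced representation bisulfite sequencing (RRBS), in which DNA is cut at CCGG by the enzyme MspI and the ends of the fragments are sequenced. For each DMS the table gives 1 difference in percentage points, read here as increased minus standard dose, and 1 q-value. Positive differences are called gains and negative ones losses. Values per animal and read depth are not used here, so the depth is unknown and no error can be set beside a difference. The methylKit q-values are those deposited. The sources used here do not say whether they allow for variation among the animals of a group, and q-values computed over reads alone would be too small.

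Adhesion molecules bind a partner on the neighbouring cell or in the matrix and pass the contact to the cytoskeleton through catenins or similar adaptors. Guidance works through ligand and receptor pairs: SLIT proteins bind ROBO receptors, netrins bind DCC and UNC5 receptors, and semaphorins bind plexins. Both systems are best studied in the nervous system, and in the lung cadherin, integrin and laminin contacts hold the epithelium and endothelium to each other and to the basement membrane. DNA methylation is the addition of a methyl group to cytosine, in mammals mostly where a G follows (CpG).

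In the adhesion and guidance genes 15 sites had higher methylation with the increased dose and 22 had lower. Gains were thus 40.5% of the member sites, against 59.3% of all listed sites and 59.6% of the 2312 others, and losses were 40.7% of all listed sites. Counted by gene, with the sign of the mean over a gene's sites, 11 of 21 genes had a gain (52.4%) and 10 a loss, compared with 60.1% gains among the 877 other genes. More than 2 losses were found in SDK1 (6), SLIT3 (3) and PTPRN2 (3), and without SDK1 the share of gains was 46.7% of 30 sites. These shares are a description, since neither sites of 1 gene nor members of a list picked with earlier results known are independent replicates.

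**Figure D1:**
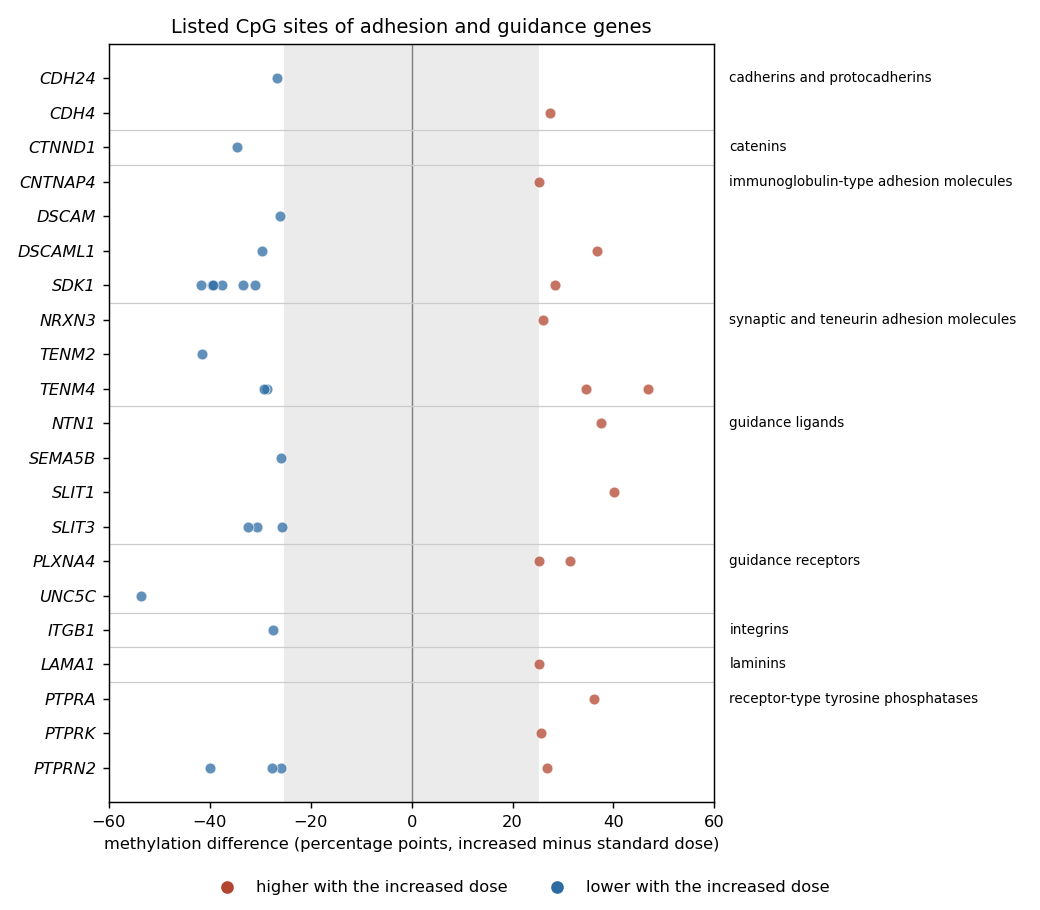
The 37 listed sites by gene, with genes ordered by role and the difference in methylation on the horizontal axis (percentage points, increased minus standard dose); red points are gains, blue points are losses, and the grey band is the range under 25 points that the table leaves out. SDK1 shows 6 losses and 1 gain, SLIT3 3 losses, and UNC5C the largest difference, -53.7 points.

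The member sites lay between 25.2 and 53.7 points in size with a median of 30.7, beside a median of 30.3 for the other listed sites. The median size was 28.3 points over the gains and 30.8 points over the losses, while over the other listed sites it was 30.7 points for gains and 29.8 for losses. The member losses include 6 of SDK1 on 3 MspI fragments, between -41.8 and -31.0 points, which weigh on that median. Without SDK1 the median over all member sites, gains and losses together, was 28.9 points. At least 40 points were reached by 6 member sites (16.2%), in UNC5C, TENM4, SDK1, TENM2, SLIT1 and PTPRN2, while 13.7% of all listed sites passed that size. The q-values of the members ranged from 3.0e-65 at SLIT1 to 0.0014 at a PTPRN2 site. All were on autosomes, on 14 of the 20 chromosomes.

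The gene with most sites was SDK1, which encodes sidekick 1, an immunoglobulin-type molecule that binds its own kind on the neighbouring cell and is known from synapse layers of the mouse and chick retina. SDK1 lies on the forward strand of chromosome 3 and is 513.4 kb long. Its 6 losses all stood in intron 21 of 43, within 2558 bp between 3198350 and 3200907 of Sscrofa11.1, about 384 to 386 kb from the gene start. Because they make up the densest group of losses among the members, the bases around them, from the RefSeq copy of that build, are shown 5′ to 3′ on the forward strand with the measured CpG in capitals; the last line holds both sites of the closest pair.
SDK1 chr3:3198336-3198365: gacccggcagtagaCGaaaagggacaaagt
SDK1 chr3:3198828-3198857: ggagcgcatcagtcCGaggagctcgaaaca
SDK1 chr3:3198858-3198887: gataatgtgtggggCGgcctcgcatcctac
SDK1 chr3:3198916-3198945: cgaaacaataacagCGaactgagcacacgc
SDK1 chr3:3200890-3200919: gatccaagctgCGtcttCGacccacaccac

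The first of these SDK1 sites, at 3198350, differed by -39.5 points (q = 4.1e-25). The next 3, at 3198842, 3198872 and 3198930, differed by -33.4, -37.5 and -31.0 points and lie on 1 MspI fragment of 238 bp. The pair at 3200901 and 3200907 differed by -41.8 points (q = 7.1e-46) and -39.4 points and lies on another fragment of 324 bp. The 6 losses therefore rest on 3 fragments, and sites of 1 fragment can be read from the same molecules. The row numbers of the table rise with position and never step by more than the number of reference CpGs between neighbouring sites (0 of 2232 pairs), so they were read as the rows of a table of all tested sites. On that reading 27 sites were tested from the first to the last SDK1 loss, of 104 reference CpGs, and 6 of the 27 (22.2%) were listed, all as losses. Over the whole table at most 0.352% of tested sites were listed, but a stretch that starts and ends at listed sites is chosen to be dense.

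**Figure D2:**
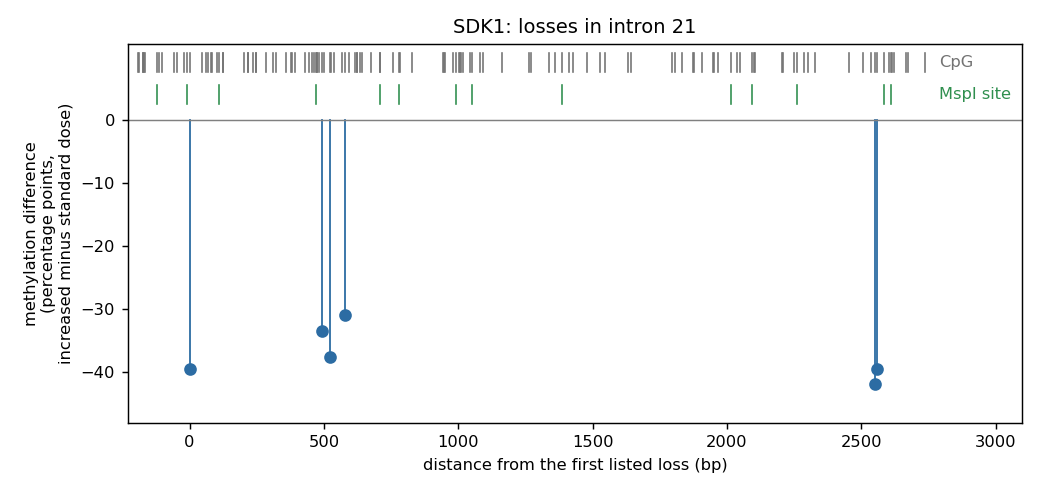
The 6 SDK1 losses in intron 21, plotted by difference (percentage points of methylation, increased minus standard dose) against the distance in bp from the first of them; grey ticks mark reference CpGs and green ticks MspI sites. The losses form a group over the first 581 bp and a pair near the end of the 2558 bp, all between -41.8 and -31.0 points.

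All 7 SDK1 sites lay in sequence that meets a definition of a CpG island of at least 500 bp. The first 4 losses had 57.3% to 62.7% G and C within 250 bases to each side. The pair had 44.7% and 44.9% and lay in soft-masked sequence, the part of the reference that is marked as repeats. The remaining SDK1 site was a gain of 28.3 points (q = 4.3e-12) in intron 27, at 3247066, which is 46159 bp beyond the pair of losses. SDK2, the only other sidekick gene, had no listed site.

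The other immunoglobulin-type molecules had few sites. DSCAM, which keeps branches of 1 neuron apart in the mouse, had a loss of -26.1 points on chromosome 13 at 204284639, in its first intron and 7.44 kb from the gene start. Its paralogue DSCAML1 carried a loss of -29.7 points at 45046862 and a gain of 36.7 points at 45098959 of chromosome 9, both inside intron 3, which is 238.0 kb long. CNTNAP4, counted with the contactins by its symbol but itself a protein of the neurexin family, had a gain of 25.3 points in intron 14. In this group 3 of 11 sites were gains, 7 of the 11 being those of SDK1.

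Teneurins are large transmembrane proteins that bind latrophilins and other teneurins across the gap between cells. TENM4, on the reverse strand of chromosome 9, carried 4 sites whose direction changed along the gene. The 2 sites in intron 1 were gains, of 34.5 points 56.1 kb from the gene start and of 46.8 points (q = 3.8e-35) 152.2 kb from it. The 2 sites further down, in introns 3 and 5 at 251.2 and 426.5 kb, were losses of -29.2 and -28.7 points. The gain of 46.8 points was the largest among the members. TENM2, 3460 kb long and so the longest member, had a single loss of -41.5 points (q = 5.5e-13) in intron 19 of 41. NRXN3, a presynaptic receptor, had a gain of 26.1 points in intron 13 and a next listed site 2946709 bp away.

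The bases around the largest gain (TENM4) and the largest loss (UNC5C) are shown next, again on the forward strand. Capitals mark the measured CpG in the UNC5C line, and in the TENM4 line the MspI site CCGG that the measured CpG forms part of. The CpG lay within CCGG at 3 member sites (8.11%), 2 in TENM4 and 1 in DSCAM, and at 8.13% of the other sites.
TENM4 chr9:13674708-13674737: cacacctgaacgaCCGGttcaatatcttga
UNC5C chr8:124531432-124531461: ttcaccacgacacgCGctgccccggtgggt

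Guidance ligands carried 6 sites in 4 genes. SLIT3 and SLIT1, both secreted ligands of ROBO receptors, differed in direction. All 3 SLIT3 sites, on chromosome 16, were losses: -25.7 points in intron 2 at 54611634, -30.7 points in intron 9 at 55077268 and -32.4 points in intron 18 at 55135421. These lie on separate MspI fragments, 58153 bp or more apart. SLIT1 on chromosome 14 had a gain of 40.1 points at 108494432, in an intron of 0.956 kb, with the smallest q-value of the members. NTN1, the netrin that attracts or repels axons according to the receptor, had a gain of 37.4 points (q = 1.7e-24) in its last intron. SEMA5B, a transmembrane semaphorin, had a loss of -25.8 points in intron 1. None of the 4 ROBO genes and none of the 8 ephrin genes had a listed site. Over all named protein-coding RefSeq genes 5.15% had one, so an absence in so few genes says little about a family.

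Among guidance receptors, UNC5C carried the largest difference of all members, a loss of -53.7 points (q = 2.9e-21) on chromosome 8 at 124531446. UNC5C mediates repulsion by netrin. By RefSeq gene models its site was also the only member site outside introns. In these models it lies in the 3′ UTR, 3957 bp after the stop codon and 2309 bp before the end of the transcript with the longest coding sequence. The authors' annotation places this site downstream of UNC5C instead, so the gene annotations differ here. PLXNA4, a plexin that binds semaphorins together with neuropilins, had gains of 25.3 points in intron 3 and 31.4 points in intron 29, at the ends of a stretch of 392751 bp. The other 8 plexin genes, the 14 ephrin receptor genes and the remaining 5 genes with the prefix UNC5 had none, where 5.15% of all named protein-coding genes had one. Of the netrin system, the ligand NTN1 thus had a gain and the receptor UNC5C a loss, each at 1 site.

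Receptor-type tyrosine phosphatases carried 6 sites in 3 genes, 3 gains and 3 losses. PTPRN2 lies near the start of chromosome 18 and holds 2700 MspI sites, the highest number among the member genes. Of its 4 sites 3 lay in intron 11, and their direction alternated: -25.8 points at 1016502, 26.9 points at 1071153 and -40.04 points (q = 5.1e-21) at 1091754. The last PTPRN2 site, in intron 15, was a loss of -27.7 points. PTPRA, which activates Src family kinases, had a gain of 36.1 points (q = 3.3e-14) in intron 19, and PTPRK, which binds its own kind between cells, a gain of 25.7 points in intron 13.

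**Figure D3:**
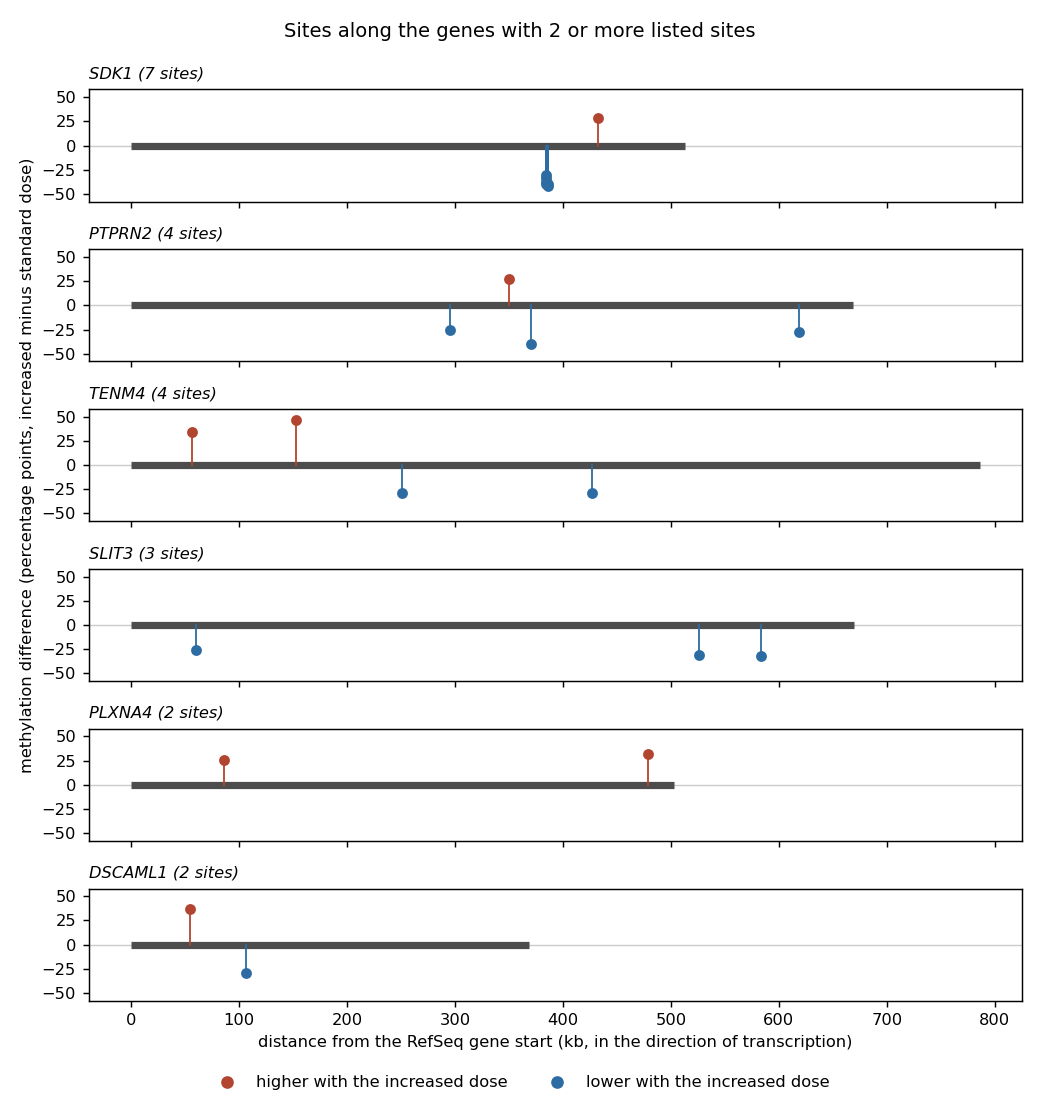
Methylation difference (percentage points, increased minus standard dose) of each listed site against its distance in kb from the RefSeq gene start, in the 6 genes with 2 or more listed sites; the dark bar is the gene, red stems are gains and blue stems are losses. Gains of TENM4 lie within 152.2 kb of its start and its losses beyond, the 3 sites of SLIT3 are losses, and both sites of PLXNA4 are gains.

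Cadherins and catenins, the core of adherens junctions, carried 3 sites in 3 genes, 1 gain and 2 losses. CDH4 (R-cadherin) had a gain of 27.4 points in intron 7, and CDH24 a loss of -26.7 points (q = 6.7e-34) in intron 8. CDH24 is 10.9 kb long, the shortest member. CTNND1 encodes p120-catenin, which keeps cadherins at the cell surface, and had a loss of -34.5 points (q = 1.1e-23) in intron 17 of 20. None of the 13 protocadherin genes carried a listed site, where 5.15% of all named protein-coding genes did. CDH1, the cadherin of epithelia, had none either.

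Contacts with the matrix were represented by 2 sites. LAMA1, a laminin chain of embryonic basement membranes, had a gain of 25.2 points in intron 1, the smallest difference among the members. The site assigned to ITGB1, the beta chain shared by many integrins, had a loss of -27.5 points on chromosome 10 at 56147186. It lies 16.6 kb upstream of the RefSeq start of ITGB1, in an intron of the non-coding gene LOC110255702. The Ensembl gene models used by the authors place it in an intron of ITGB1 instead, so the gene annotations differ at this site. The 18 integrin alpha genes had no listed site, where 5.15% of all named protein-coding genes had one.

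The position of the member sites was not used to choose them. By RefSeq gene models 36 of 37 (97.3%) lay in introns, against 57.4% of the 2215 other sites on chromosomes, of which 37.8% were intergenic; a site needs a symbol to be a member, so part of this gap is built in. No member site lay within 5 kb of a RefSeq gene start, in a coding exon, in a 5′ UTR or in the 1000 bp upstream of a gene. The sites inside their gene were a median of 360.3 kb from its start and 72.8% of the way along it. Of the 12 sites up to the midpoint of their gene 7 were gains, and of the 24 beyond it 8 were, with 6 of the 16 losses there in SDK1. This split was not made for the other listed sites, so its usual values are unknown. All 37 are CpGs of the reference, and the nearest MspI site was 0 to 129 bp away with a median of 41 bp, the same median as for the other sites.

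Repeats were less common around the member sites than around the others. Of those others 37.8% were intergenic and no member site was, so the shares below compare unlike classes of sites. Soft-masked sequence held 16 of the 37 member sites (43.2%), against 63.8% of the others. The 30 bases around the site had another exact copy on the chromosomes for 10 member sites (27.0%), against 46.2% of the others. Copy numbers varied widely. The SLIT3 site at 55077268 had 14927 further copies, that of CTNND1 1837 and that of PTPRA 110, while the other 7 had 1 to 11. Gains were 6 of the 16 soft-masked member sites (37.5%) and 9 of the 21 member sites outside soft-masked sequence (42.9%). Among the other sites on chromosomes gains were 61.0% of the 1413 soft-masked and 58.1% of the 802 not soft-masked. A CpG island of at least 200 bp covered 22 member sites (59.5%), against 70.8% of the others. Islands of at least 500 bp covered 8 of them (21.6%), against 17.2%, and those 8 were the 7 sites of SDK1 and 1 of PTPRN2. How repeats bear on the differences was not tested.

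Among the soft-masked sites, a gain and a loss shared most of the bases around them. When the 30 bases around each member site were compared on both strands, 2 pairs of sites in different genes shared a run of 12 or more bases. The longer run had 20 bases, on opposite strands, and joined the NTN1 gain of 37.4 points with the CDH24 loss of -26.7 points. The other had 13 bases and joined the SLIT3 loss at 55077268 with the SEMA5B loss. The longer pair, picked after its values were seen, is shown on the forward strand with the shared bases in capitals.
NTN1 chr12:54189136-54189165: agcaactCCAGATCCGAGCCACGTCTGtga
CDH24 chr7:75996695-75996724: tttCAGACGTGGCTCGGATCTGGcgtgcct

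To see which genes of these families carried sites, the members were set against all RefSeq genes with the same prefixes. Gene length and the number of MspI sites differed between genes with and without a site, and their part was not tested. There are 244 such genes on the chromosomes, of which 21 (8.61%) had a listed site, against 5.15% of the 16306 named protein-coding RefSeq genes. Both shares count a gene by the deposited symbol of a site. By RefSeq overlap 20 member genes remained, since the ITGB1 site, the only integrin site, lies outside the RefSeq gene. Those 21 had a median length of 384.4 kb and a median of 613 MspI sites, and the other 223 had 80.5 kb and 101. Of the 61 genes of at least 300 kb 12 (19.7%) had a listed site, against 15.1% of the 677 named protein-coding genes of that length. Of the 95 under 50 kb 1 had (1.05%), CDH24, against 2.76% of 11067. No test was made of these shares. By role, with all genes that share the prefixes counted, the share was 20.0% for immunoglobulin-type molecules (4 of 20). It was also 20.0% (3 of 15) for a group of neurexins, neuroligins, teneurins and SLITRK genes, the last matched through the prefix SLIT. Within that group 1 of 3 neurexins and 2 of 4 teneurins had a site, and no neuroligin or SLITRK gene had one. The share was 14.3% for receptor-type phosphatases (3 of 21) and 10.8% for guidance ligands (4 of 37). It was 1 of 9 for catenins, 8.33% for laminins (1 of 12), 6.06% for guidance receptors (2 of 33), 5.0% for cadherins and protocadherins (2 of 40) and 3.45% for integrins (1 of 29). Each of these shares rests on 1 to 4 genes. None of the 28 adhesion G protein-coupled receptor genes had one. The median gene length by role ran from 41.1 kb for guidance ligands to 354.3 kb for immunoglobulin-type molecules, and was 54.2 kb for these receptors.

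**Figure D4:**
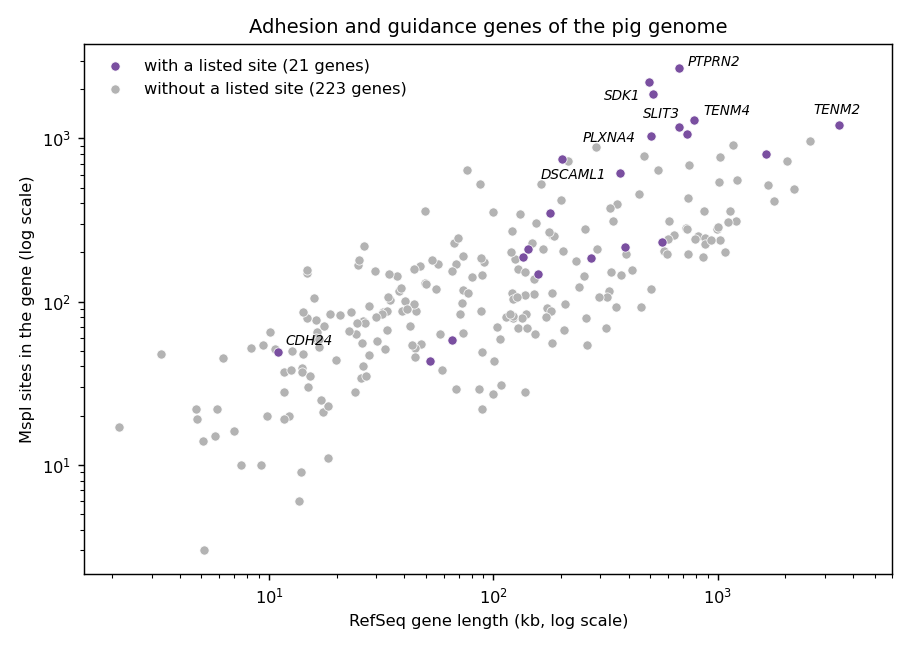
Number of MspI sites within the gene against RefSeq gene length in kb, both on log scales, for the 244 genes with the 27 prefixes; purple points are the 21 genes with a listed site and grey points the 223 without. Genes with a listed site lie towards the upper right, with medians of 384.4 kb and 613 MspI sites against 80.5 kb and 101.

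Because most members are long, their direction was also set beside that of other long genes, a comparison added after seeing the data. In introns of genes of at least 300 kb 10 of 27 member sites were gains (37.0%), against 157 of 236 others (66.5%). At a minimum of 100 kb the shares were 45.5% of 33 and 58.7% of 639. By gene the difference was smaller and changed sign with the minimum length: 6 of 11 member genes had a mean gain against 62.3% of 122 others at 300 kb, and 11 of 17 (64.7%) against 58.9% of 401 others at 100 kb. With 1 vote per gene the member genes thus had a lower share of gains at one minimum length and a higher share at the other. These counts by gene use intron sites only. They leave out UNC5C, 384.4 kb long, whose only site is a loss in the 3′ UTR.

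**Figure D5:**
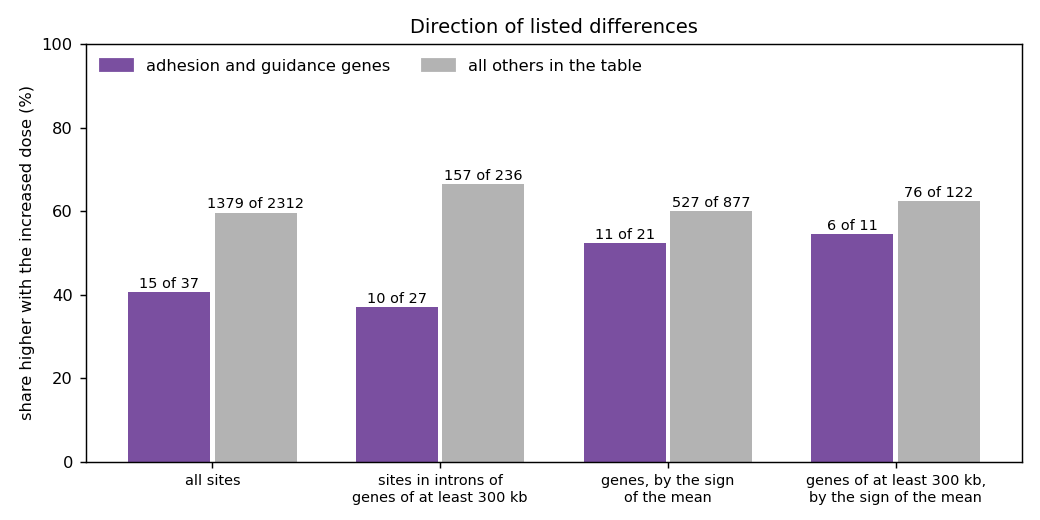
Share of listed differences that were higher with the increased dose (%, axis from 0), for adhesion and guidance genes (purple, left of each pair) and all others in the table (grey); numbers give gains of all. Member sites had 15 of 37 gains against 1379 of 2312, while by gene the shares were 11 of 21 and 527 of 877. The sets of genes of at least 300 kb hold intron sites only.

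Partners that lie outside the prefixes were looked at as a separate list of 177 genes, of which 175 are in RefSeq. Among them 19 (10.9% of 175) had listed sites, against 5.15% of named protein-coding genes. The list was chosen with earlier results known, and the lengths of its genes were not matched. Over the named protein-coding genes the share was 2.76% under 50 kb and 15.1% at 300 kb or more. The 26 sites of the partner genes were 13 gains and 13 losses, while 59.3% of all listed sites were gains. Guidance effectors had 12 sites in 7 genes (5 gains), among them 3 losses of -44.6 to -36.1 points at DOCK1 and gains of 41.4 points at ABL1 and 36.5 points at FARP2, which act between guidance receptors and the cytoskeleton. Integrin adaptors had 3 sites in 2 genes, a loss of -39.2 points at PARVB and gains up to 36.0 points at PTK2B. Junction proteins had 3 sites, at LIN7B (53.8 points), MAGI3 (-26.5 points) and AFDN (-26.0 points). Other adhesion molecules had 8 sites in 7 genes, with IGSF9B at -33.3, IGSF3 at 30.9 and JAM2 at 30.5 points as the largest. The netrin receptor DCC, the neuropilins and the other co-receptors on the list (14 genes), and the 19 matrix partners such as nidogens and agrin, had none.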

How the data were processed

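RRBS data of 16 pig lungs (8 increased, 8 standard dose) were used. Per the methods, the authors trimmed reads (FlexBar), mapped them to Sscrofa11.1 with BSMAP set for MspI, required over 5 reads at a CpG and ran methylKit 1.26.0. The deposited table holds the authors' own comparison only, at sites of at least 25 points with a q-value under 0.05. Its q-value and its methylation difference, a signed score in percentage points as deposited by the authors, are given as the measurements, and its p-values are not used. With no values per animal nothing could be refitted, and no test was made. The difference is read as increased minus standard dose after the wording of the methods and results, since the table does not state it. Members and lists were chosen with earlier results of these data known.

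Row numbers, positions and symbols were taken from the table. Positions were annotated with RefSeq models and sequence of Sscrofa11.1 (21 of 21 symbols matched) in Python 3.11.15, in the order coding exon, UTR, non-coding exon, intron, promoter (1000 bp upstream). Intron numbers follow the transcript with the longest coding sequence. An island was a window of 200 bp whose GC share passed 0.5 and whose CpG ratio, observed to expected, passed 0.6; the stricter form used 500 bp, 0.55 and 0.65. The functions were tested on simulated data. Member genes were named by symbol, with single sites for genes with 2 or more, for sites of at least 40 points and for sites outside introns, and up to 3 partner genes per list by size. Alternatives were a stricter q-value, 30 or 35 points, merged neighbours, genes by RefSeq overlap, named families only, autosomes only and other islands.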

Additional observations from a re-analysis of the deposited data

How the results depend on the processing

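Of 56 values under alternative settings, 45 stayed close to the main value (shares and medians within its 95% interval, counts within 1.5 times). Named families only and autosomes only kept all 37 sites and 21 genes, so their values could not move and tell nothing about stability. The intervals treat sites as independent, which sites of 1 gene are not. With a q-value under 1e-10, 22 member sites remained with a median size of 36.4 points. At 30 points 19 sites in 12 genes remained (median 37.4 points) and at 35 points 12 sites in 9 genes (median 39.8 points). These follow from the stricter limits. Outside soft-masked sequence, a setting chosen after seeing the data, as was leaving out SDK1, 21 sites in 12 genes were counted. The share in CpG islands was 21.6% with islands of at least 500 bp in place of 59.5%. The share of gains among sites lay between 36.4% and 46.7% over the alternatives. The share among genes lay between 42.9% and 55.6%, so it stood on either side of an even split. Among the 877 other genes gains were 60.1% under the main settings, and those genes were not recounted under the alternatives. The 4 pairs of neighbouring member sites up to 1000 bp apart, all in SDK1, shared a direction. Naming by RefSeq overlap removed only the ITGB1 site. The comparison with all protein-coding genes was added after seeing the data. No paired analysis was possible because the table holds 1 difference per site and no values per animal, and leaving out single animals or a coverage minimum could not be run for the same reason.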
